A study of Arabidopsis thaliana with 10 samples.

Results

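Transcripts of whole shoots were compared between plants given dexamethasone (DEX) for 24 hr and plants sampled at 0 hr. The comparison used 4 of the 10 Affymetrix ATH1 arrays of the series, the 2 of the 24 hr group and the 2 of the 0 hr control, chosen by their labels. All plants were Arabidopsis thaliana shr-2 mutants that carried pSHR:SHR-GR, a fusion of SHORT-ROOT (SHR) to the glucocorticoid receptor under the SHR promoter. The 24 hr plants received 10 µM DEX at 9 days after germination (DAG), and both groups were harvested at 10 DAG, so their age at harvest was the same. The other groups, of 2 arrays each, had 3, 6 and 12 hr of 10 µM DEX from 10 DAG. Growth was at 22 °C under 16 h light and 8 h darkness. No mock-treated arrays and no clock times of harvest were used here, so DEX, handling and time of day cannot be told apart in any comparison with 0 hr. In a whole shoot, fewer cells of a type and less RNA per cell cannot be told apart either.

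SHR, of the GRAS family of transcription factors, is made in the stele of the root, moves one cell layer outwards and there specifies the endodermis together with SCARECROW. In shoots it acts in vascular and bundle sheath tissue and in leaf growth. A fusion to the glucocorticoid receptor stays in the cytoplasm until DEX binds the receptor part, and then enters the nucleus, so that target genes can be followed from the time of treatment. A day of treatment covers direct targets, what these targets change in turn, and a full cycle of light and dark.

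The values were MAS5 signals, a brightness per probe set on a linear scale, with array medians between 181.5 and 191.5. The replicates correlated at 0.989 at 24 hr and 0.986 at 0 hr across probe sets. RCA, the activase of Rubisco and the 1 measured member of 20 shoot markers, gave 22094 and 20767 at 24 hr, against 22977 and 25490 at 0 hr. Of 21 root markers 3 were measured and none was called, with log2 fold changes from -0.23 to 0.36 and a median of -0.15. EXPA18, an expansin of root hairs, gave 71.7 and 66.9 at 24 hr, against 85.2 and 82.5 at 0 hr. EXPA7, another expansin of the list, was at 0.36 with low signals, 20.5 and 21.5 at 24 hr, against 18.4 and 8.24 at 0 hr. The ratio of 3' to 5' signal of GAPDH, a sign of RNA integrity, was 1.85 and 1.81 at 24 hr, against 2.13 and 2.28 at 0 hr. That of actin was 20 and 12.7 at 24 hr, against 24.7 and 21.5 at 0 hr. For ubiquitin it was 2.69 and 2.43 at 24 hr, against 2.66 and 2.7 at 0 hr, and the groups overlapped. The part of the GAPDH and actin differences in the results was not tested.

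After 24 hr of DEX the changed transcripts were mostly higher ones. Of 22746 probe sets tested with limma on log2(signal + 16), 163 were higher (0.717%) and 55 lower (0.242%) at an adjusted p below 0.05, together 0.958%. The higher ones ran from 0.34 to 2.27 on the log2 scale with a median of 0.77, and 53 of them were at least 2-fold higher. The lower ones ran from -1.62 to -0.34 with a median of -0.51, and 5 were at least 2-fold lower. The median over all probe sets was -0.03. An unadjusted p below 0.05 was found for 3147 probe sets (13.8%). A single gene was named for 77 of the higher and 27 of the lower probe sets. The total was 82 with control replicate 1 omitted, 70 with control replicate 2 omitted, 96 without 24 hr replicate 1 and 192 with 24 hr replicate 2 omitted. It was 49 in a fit over the 4 arrays alone. A fit that lacks 1 array leaves its group with a single array and a wider standard error. A call lost there does not by itself show that the change rested on that array. In all 4 fits that lacked 1 array, 54 probe sets were called, of which 52 were higher and 2 lower.

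**Figure D1:**
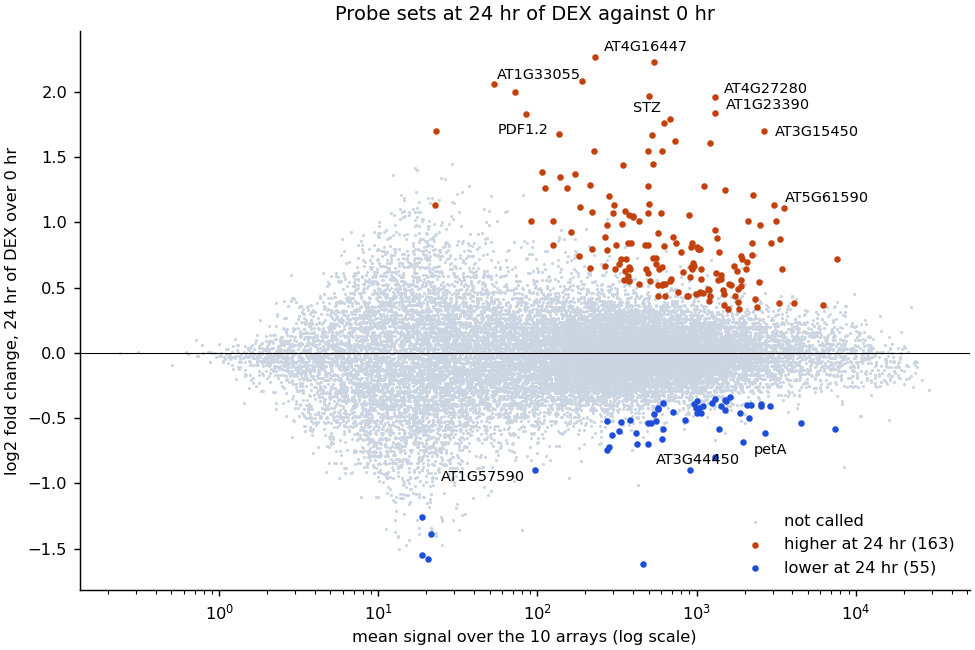
Log2 fold change of 24 hr of DEX over 0 hr (vertical axis) against the mean signal over the 10 arrays (horizontal axis, log scale), 1 point per probe set. The 163 higher probe sets reach 2.27 on the log2 scale, while most of the 55 lower ones lie between -0.34 and -0.90.

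Of the 25 largest rises of named genes, 16 kept their call under every setting tried and in each fit without 1 array. They were AT4G16447, AT1G33055, AT4G27280, AT1G23390, STZ, AT3G15450, AT2G20670, AT1G72940, AT2G27830, AT1G72900, AT5G60680, AT5G61590, AT1G72920, AT5G05250, AT4G10270 and AT3G26510. The largest belonged to AT4G16447, with signals of 459 and 321 at 24 hr, against 72.1 and 62.2 at 0 hr. Its fold change was 4.82 (log2 fold change 2.27, SE 0.17, adjusted p = 4.91e-05). The higher 24 hr array was 24 hr replicate 1, and both stood far above the controls. AT4G16447 was also higher at 24 hr than at 6 hr, by 0.97 on the log2 scale (adjusted p = 0.00602), and than at 3 hr, by 0.75 (adjusted p = 0.0168). Its difference from 12 hr was 0.43 and did not pass (adjusted p = 0.381).

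**Figure D2:**
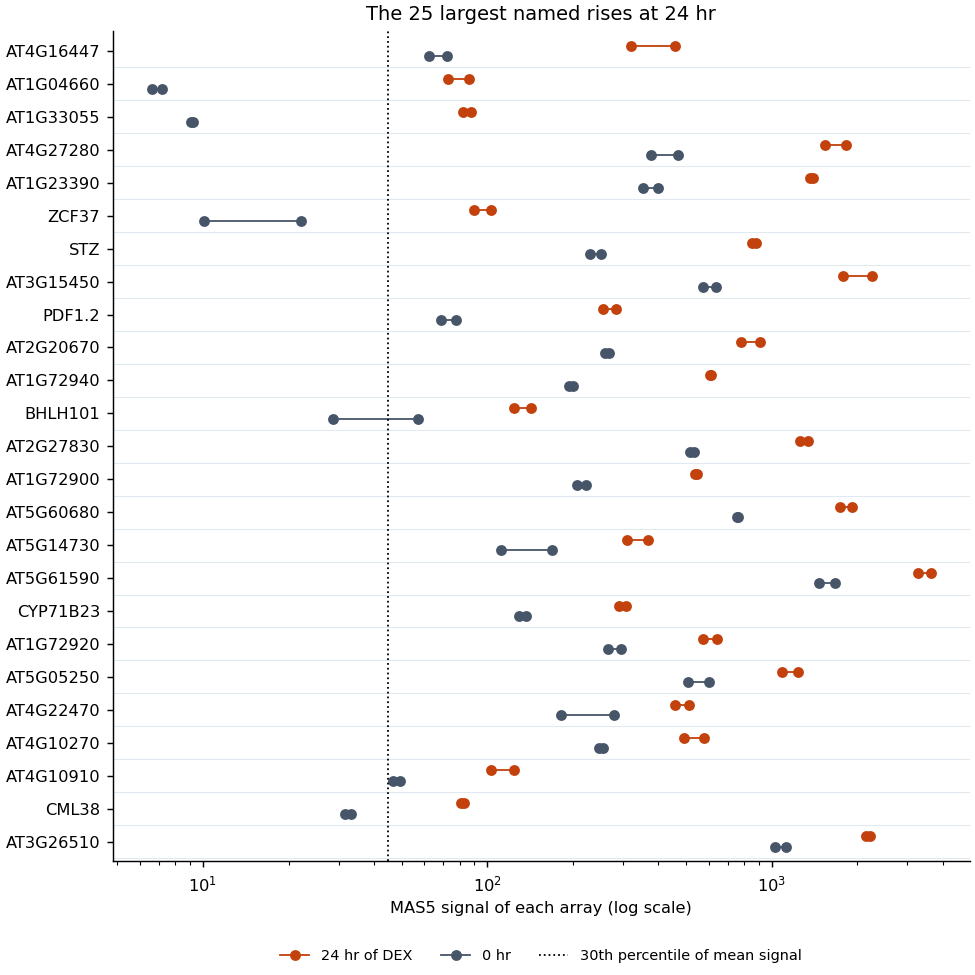
MAS5 signal of each array (log scale) for the 25 largest rises of named genes, with the 24 hr pair above the 0 hr pair in each row and a line joining the 2 replicates. AT4G16447 comes first with a fold change of 4.82, and AT1G04660, AT1G33055, ZCF37 and CML38 have both 0 hr signals left of the dotted line at 44.8, as BHLH101 has its control replicate 1.

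Of 10 measured genes for touch, calcium and early defence, 3 rose and 7 did not pass, with a list median of 0.50. The shares over all probe sets were 0.717% higher and 0.242% lower. This list and those below were chosen with earlier results of these data known. AT4G27280, an EF-hand protein that binds calcium, had signals of 1545 and 1828 at 24 hr, against 378 and 469 at 0 hr (log2 fold change 1.96, SE 0.12, adjusted p = 2.29e-05). STZ, a C2H2 zinc-finger repressor of stress responses also known as ZAT10, had 854 and 884 at 24 hr, against 251 and 230 at 0 hr (log2 fold change 1.79, SE 0.13). The groups lay apart for both genes, which the rule for naming the largest rises required. CML38, a calmodulin-like protein, had 82.5 and 80.7 at 24 hr, against 33.2 and 31.7 at 0 hr (log2 fold change 1.01, SE 0.20, adjusted p = 0.0386). Its controls were near background, which here means below 44.8, the 30th percentile of mean signal. Its adjusted p was 0.157 with control replicate 1 omitted, 0.176 with control replicate 2 omitted, 0.168 without 24 hr replicate 1 and 0.102 with 24 hr replicate 2 omitted. Among the 7 that did not pass were CML23, a further calmodulin-like gene, at 0.81 (adjusted p = 0.121) and WRKY53, a factor of defence and senescence, at 0.19.

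Of 11 measured genes for sugar starvation and the SnRK1 kinase, which senses low energy, 4 rose, 1 fell and 6 did not pass, with a median of 0.43. Over all probe sets 0.717% were higher, 0.242% lower and the median was -0.03. AT1G23390, a Kelch-repeat F-box protein, had signals of 1365 and 1396 at 24 hr, against 398 and 353 at 0 hr (log2 fold change 1.84, SE 0.09, adjusted p = 6.63e-06). AT3G15450, an aluminium-induced-like protein, had 1776 and 2255 at 24 hr, against 575 and 637 at 0 hr (log2 fold change 1.7, SE 0.11). AT2G20670, a DUF506 protein, had 778 and 911 at 24 hr, against 269 and 260 at 0 hr (log2 fold change 1.61, SE 0.10). In all 3 both 24 hr arrays stood above both controls, which the rule for naming the largest rises required. AT3G15630 rose by 0.57 (SE 0.11, adjusted p = 0.0418), a call that did not hold with control replicate 1 omitted (adjusted p = 0.186), control replicate 2 (0.205) or 24 hr replicate 1 (0.222). MGL, a methionine gamma-lyase on the same list, went the other way and fell by 0.52 (SE 0.10, adjusted p = 0.0438). Its adjusted p was 0.0834 with control replicate 1 omitted, 0.25 with control replicate 2 omitted, 0.164 without 24 hr replicate 1 and 0.109 with 24 hr replicate 2 omitted. Among those that did not pass were AKINBETA1, a subunit of SnRK1, at 0.19, and the sucrose exporter SWEET13 at -0.25.

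Among measured loci, 3 in a row by number, for proteins of the TIR class, a domain of many immune receptors, rose together. Loci without a named probe set may lie between these 3. The position of the 3 was seen only after their values were known. AT1G72940 had signals of 607 and 614 at 24 hr, against 201 and 194 at 0 hr (log2 fold change 1.55, SE 0.10, adjusted p = 2.29e-05). AT1G72900 had 536 and 546 at 24 hr, against 207 and 222 at 0 hr (log2 fold change 1.28, SE 0.11). AT1G72920 had 644 and 575 at 24 hr, against 296 and 266 at 0 hr (log2 fold change 1.07, SE 0.10). No other measured locus between AT1G72840 and AT1G72960 was called. The next locus upstream in number, AT1G72890, had 111 and 115 at 24 hr, against 91 and 109 at 0 hr (log2 fold change 0.16, adjusted p = 0.783). The remaining 6 measured loci of this stretch had mean signals near background. Genes in such a cluster can resemble each other in sequence, and whether their probe sets respond to more than 1 of them was not tested.

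The rises of AT5G61590, AT5G07580, AT5G60680, EXO and STOMAGEN are given as single genes and were not tested as a group. AT5G61590, the ERF factor DEWAX that represses genes of wax synthesis, had signals of 3269 and 3624 at 24 hr, against 1468 and 1677 at 0 hr (log2 fold change 1.13, SE 0.08, adjusted p = 3.86e-05). AT5G07580, its relative DEWAX2, was looked up after its values were seen and had 2151 and 2012 at 24 hr, against 1432 and 1456 at 0 hr (log2 fold change 0.52, adjusted p = 0.0141). Its adjusted p was 0.116 with control replicate 1 omitted, 0.0991 with control replicate 2 omitted and 0.102 with 24 hr replicate 1 omitted. AT5G60680, a DUF584 protein, had 1924 and 1746 at 24 hr, against 761 and 758 at 0 hr (log2 fold change 1.25, SE 0.07). All 3 separated the groups, which the naming rule required of AT5G61590 and AT5G60680. EXO, the EXORDIUM protein that promotes leaf growth, was likewise picked after its values were seen, with 1805 and 1697 at 24 hr, against 1019 and 1101 at 0 hr (log2 fold change 0.72, adjusted p = 0.00054). STOMAGEN, a peptide made in the leaf mesophyll that raises stomatal density, had 2157 and 2216 at 24 hr, against 1733 and 1724 at 0 hr (log2 fold change 0.34, SE 0.06, adjusted p = 0.0354). Its adjusted p was 0.16 and 0.174 with control replicate 1 or 2 omitted, and 0.1 and 0.0878 with 24 hr replicate 1 or 2 omitted.

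In the iron deficiency list 2 of 3 measured genes rose, against 0.717% of all probe sets. The list held 24 loci. AT5G05250 had signals of 1241 and 1091 at 24 hr, against 507 and 600 at 0 hr (log2 fold change 1.06, SE 0.11, adjusted p = 0.000784). BHLH101, a bHLH factor of the iron deficiency response, had 143 and 124 at 24 hr, against 28.6 and 57 at 0 hr (log2 fold change 1.39, SE 0.23, adjusted p = 0.0188). Control replicate 1 was near background, and the adjusted p of the gene was 0.108 with control replicate 1 omitted, 0.136 without 24 hr replicate 1 and 0.0566 with 24 hr replicate 2 omitted. PYE, a second bHLH factor of this response, had 243 and 285 at 24 hr, against 291 and 235 at 0 hr, and the groups overlapped.

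In the hypoxia list 2 genes rose and 11 of its 13 measured members did not pass, with a list median of 0.04. The share that was higher over all probe sets was 0.717%. AT1G33055 had signals of 82 and 87.8 at 24 hr, against 9.05 and 9.23 at 0 hr (log2 fold change 2.00, SE 0.22, adjusted p = 0.00114). AT4G10270, of the wound-responsive family, had 579 and 493 at 24 hr, against 248 and 255 at 0 hr (log2 fold change 1.04, SE 0.11). The pyruvate decarboxylase PDC2, an enzyme of fermentation, had 1507 and 1424 at 24 hr, against 1415 and 1451 at 0 hr, a difference of 0.03 (adjusted p = 0.891). The controls of AT1G33055 were near background, so the size of its change depends on the offset.

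PDF1.2, a defensin switched on by jasmonate with ethylene, had signals of 283 and 256 at 24 hr, against 68.6 and 77.7 at 0 hr (log2 fold change 1.68, SE 0.23, adjusted p = 0.00626). It was higher at 24 hr than at 6 hr, by 1.31 (adjusted p = 0.00693), and than at 3 hr, by 1.89 (adjusted p = 0.000464). Its difference from 12 hr was 0.55 and did not pass (adjusted p = 0.418). Its adjusted p against 0 hr was 0.0769 with control replicate 1 omitted, 0.0545 without control replicate 2 and 0.0715 with 24 hr replicate 1 omitted. AT2G38240, an oxygenase that hydroxylates jasmonic acid, had 115 and 130 at 24 hr, against 52.1 and 71 at 0 hr (log2 fold change 0.84, SE 0.15, adjusted p = 0.0244). It lost its call with control replicate 1 omitted (adjusted p = 0.151), 24 hr replicate 1 (0.081) or 24 hr replicate 2 (0.0906). So 2 of 9 measured jasmonate genes rose, against 0.717% of all probe sets. The other 7 did not pass, with a list median of 0.32. Among them THI2.1, a thionin, had 49 and 45.7 at 24 hr, against 53 and 45.3 at 0 hr.

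Of the remaining rises among the 25, AT1G04660, ZCF37, CYP71B23 and AT4G10910 lost their call in 3 or 4 of the 4 fits that lacked 1 array, AT4G22470 in 2 and AT5G14730 in 1. AT1G04660, a glycine-rich protein, had signals of 86.2 and 72.8 at 24 hr, against 6.6 and 7.19 at 0 hr, and ZCF37 had 103 and 89.9 at 24 hr, against 22.2 and 10.1 at 0 hr. Their controls were near background. The adjusted p of AT1G04660 was 0.0188 with all arrays and between 0.0606 (with 24 hr replicate 2 omitted) and 0.135 (with 24 hr replicate 1 omitted) with 1 array left out. That of ZCF37 was 0.0141 with all arrays, 0.125 with control replicate 2 omitted, 0.112 without 24 hr replicate 1 and 0.0535 with 24 hr replicate 2 omitted. CYP71B23, a cytochrome P450, had 307 and 291 at 24 hr, against 137 and 129 at 0 hr (log2 fold change 1.08, SE 0.17, adjusted p = 0.0141). It was the called gene among 23 measured P450 genes, whose median was 0.09, against 0.958% called over all probe sets. Its log2 fold change ran from 1.04 with control replicate 2 omitted to 1.12 with 24 hr replicate 2 omitted. AT4G10910 had 103 and 124 at 24 hr, against 46.6 and 49.3 at 0 hr (log2 fold change 1.01, SE 0.17, adjusted p = 0.0187). With 1 array left out its adjusted p lay between 0.0583 (24 hr replicate 1 omitted) and 0.116 (control replicate 1 omitted). AT4G22470 had 513 and 456 at 24 hr, against 182 and 279 at 0 hr (log2 fold change 1.05, adjusted p = 0.0151), and lost its call with control replicate 1 omitted (adjusted p = 0.0783) and with 24 hr replicate 1 omitted (0.119). Its controls lay further apart than its 24 hr arrays. AT5G14730 had 367 and 310 at 24 hr, against 169 and 112 at 0 hr (log2 fold change 1.2, adjusted p = 0.00649), and lost its call with 24 hr replicate 1 omitted (adjusted p = 0.0764).

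The falls were smaller and fewer of them kept their call with 1 array left out. Each such fit has a single array in 1 group, and a call can go while the fold change moves little. AT1G57590 lay between -0.96 and -0.85 in these fits, against -0.90 with all arrays, and MGL between -0.63 and -0.41, against -0.52. Lost calls were not limited to fits that lacked 1 array. Most of the 20 largest falls of named genes also lost theirs in the limma fit over all arrays without the intensity trend. The adjusted p there was 0.187 for psbK and MGL and 0.204 for AT4G33040, while AT1G57590 and AT3G44450 kept their calls. MGL also lost its call with offset 64 (adjusted p = 0.0536), quantile normalization (0.0595), a common median (0.0505) and the replicate block (0.0551). Of the 20 largest falls of named genes, 19 lost their call with control replicate 1 omitted, 19 with control replicate 2 omitted, 19 without 24 hr replicate 1 and 13 with 24 hr replicate 2 omitted, and none kept it in all 4 fits. The adjusted p of the lost calls ran from 0.0507 (TBL23, with 24 hr replicate 2 omitted) to 0.25 (MGL, with control replicate 2 omitted).

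**Figure D3:**
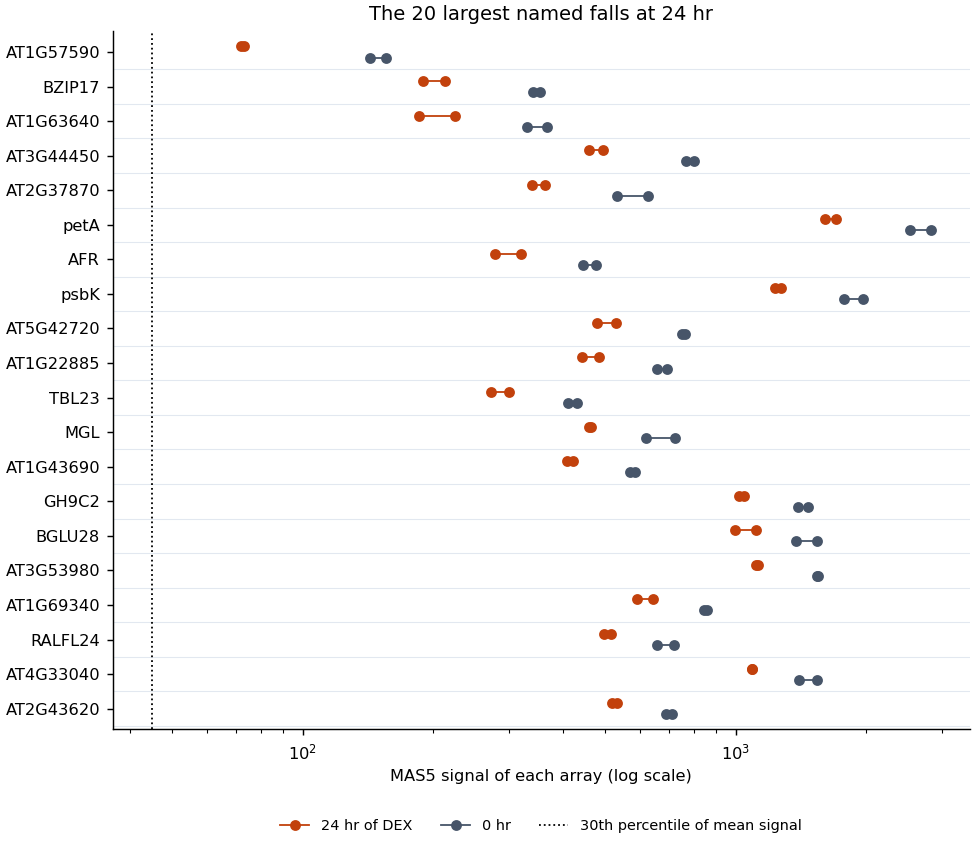
MAS5 signal of each array (log scale) for the 20 largest falls of named genes, with the 24 hr pair above the 0 hr pair in each row and a line joining the replicates. The 24 hr pair lies left of its 0 hr pair by 1.87-fold for AT1G57590 and 1.33-fold for AT2G43620, the first and last rows.

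Of 11 measured genes of the clock and daily rhythm, 2 fell, 1 rose and 8 did not pass, with a list median of -0.12. The shares over all probe sets were 0.242% lower and 0.717% higher. AT3G44450, the BIC2 inhibitor of blue-light cryptochromes, had signals of 459 and 494 at 24 hr, against 767 and 803 at 0 hr. Its log2 fold change was -0.70 (SE 0.09, adjusted p = 0.00314), and with control replicate 2 omitted the adjusted p was 0.0536. AFR, an F-box protein of far-red light signalling, had 278 and 319 at 24 hr, against 476 and 444 at 0 hr (log2 fold change -0.60, SE 0.11, adjusted p = 0.03). Its adjusted p was 0.175 with control replicate 1 omitted, 0.117 without control replicate 2 and 0.16 with 24 hr replicate 1 omitted. COR27 is a cold- and clock-regulated gene with 723 and 648 at 24 hr, against 487 and 454 at 0 hr. COR27 rose by 0.53 (SE 0.09, adjusted p = 0.0237), with an adjusted p of 0.0965 with control replicate 1 omitted, 0.169 without control replicate 2 and 0.147 with 24 hr replicate 1 omitted. Among the 8 that did not pass was GIGANTEA (GI), a clock component, with 521 and 552 at 24 hr, against 571 and 545 at 0 hr.

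Among 45 measured plastid genes of photosynthesis 2 fell and 1 rose, against 0.242% and 0.717% of all probe sets. The cytochrome f gene petA had signals of 1611 and 1707 at 24 hr, against 2818 and 2521 at 0 hr (log2 fold change -0.68, SE 0.10, adjusted p = 0.00925). psbK, a small subunit of photosystem II, had 1269 and 1230 at 24 hr, against 1971 and 1777 at 0 hr (log2 fold change -0.58, SE 0.11, adjusted p = 0.0322). psbH, another small subunit of photosystem II, had 2257 and 2363 at 24 hr, against 1442 and 1456 at 0 hr (log2 fold change 0.67, SE 0.11, adjusted p = 0.0191). The groups were apart in opposite directions. petA lost its call with control replicate 1 omitted (adjusted p = 0.113) and with 24 hr replicate 1 omitted (0.0824). psbK lost it in each fit without 1 array, with adjusted p from 0.0954 (with 24 hr replicate 2 omitted) to 0.191 (with control replicate 1 omitted). psbH also lost it in each, from 0.0791 (with 24 hr replicate 2 omitted) to 0.133 (with control replicate 1 omitted). Of 45 measured plastid genes of photosynthesis, 42 did not pass at the adjusted threshold and the median was -0.06, with a range from -1.01 to 0.73. An unadjusted p below 0.05 was found for 21 of the 45, against 13.8% of all probe sets. The member at -1.01 was psbN, a gene for a small plastid protein, with 273 and 293 at 24 hr, against 657 and 524 at 0 hr (SE 0.21, adjusted p = 0.056). The member rbcL, the large subunit of Rubisco, was at -0.04. None of 19 plastid genes of transcription and translation was called by limma, although 4 had an unadjusted p below 0.05, and their median was 0.05.

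None of 14 measured expansin and XTH genes, which loosen walls, was called by limma, with 3 at an unadjusted p below 0.05 and a median of 0.09. Over all probe sets 0.958% were called, 0.242% as lower, and 13.8% had an unadjusted p below 0.05. The falls that follow are single genes, each called with all arrays and not tested as a group. AT1G57590, a pectin acetylesterase, had signals of 73.1 and 72.1 at 24 hr, against 156 and 143 at 0 hr (log2 fold change -0.90, SE 0.17, adjusted p = 0.0386). GH9C2, an endoglucanase, had 1043 and 1020 at 24 hr, against 1392 and 1466 at 0 hr (log2 fold change -0.46). TBL23, of the trichome birefringence-like family that acetylates wall polymers, had 272 and 299 at 24 hr, against 430 and 409 at 0 hr (log2 fold change -0.53). TBL23 was 1 of 23 measured members of its family, and the other 22 did not pass. The lipid transfer protein genes AT2G37870 and AT3G53980 fell, AT2G37870 by 0.70 and AT3G53980 by 0.46 on the log2 scale, and the signalling peptide RALFL24 by 0.43. With 1 array left out, the adjusted p of AT1G57590 ran from 0.104 (with 24 hr replicate 2 omitted) to 0.191 (with control replicate 1 omitted). That of GH9C2 ran from 0.0932 (with 24 hr replicate 2 omitted) to 0.2 (with control replicate 2 omitted).

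At 24 hr 6 named genes were called against 0 hr that were called at none of 3, 6 and 12 hr. BZIP17, a membrane-bound transcription factor of stress in the endoplasmic reticulum, had 190 and 213 at 24 hr, against 353 and 341 at 0 hr (log2 fold change -0.74, SE 0.15, adjusted p = 0.0456). The kinesin gene AT1G63640 had 186 and 225 at 24 hr, against 367 and 330 at 0 hr (log2 fold change -0.72, adjusted p = 0.0231). AT1G43690 fell by 0.47 (adjusted p = 0.0314), while AT2G31410, AT1G24050 and STOMAGEN rose by 0.46, 0.34 and 0.34. None of the 6 kept its call in all 4 fits that lacked 1 array, and the adjusted p of AT2G31410 reached 0.222 and that of AT1G24050 0.18 with control replicate 2 omitted. A call at 1 time and none at another does not show that the times differ. Against 12 hr none of the 6 was called, and the adjusted p of BZIP17 there was 0.443. Against 3 hr, AT1G43690 was lower at 24 hr by 0.60 (adjusted p = 0.00132), and STOMAGEN was higher by 0.51 (adjusted p = 0.000457). AT1G24050 and AT2G31410 were also higher than at 3 hr, by 0.35 (adjusted p = 0.00623) and 0.34 (0.0314). BZIP17 and AT1G63640 did not pass there. Against 6 hr, AT1G43690 was lower by 0.39 (adjusted p = 0.0224), and AT1G24050 and STOMAGEN were higher by 0.26 (0.0387) and 0.27 (0.0269). BZIP17, AT1G63640 and AT2G31410 did not pass against 6 hr. The call of BZIP17 against 0 hr did not hold in any fit that lacked 1 array (adjusted p between 0.0838 without 24 hr replicate 2 and 0.213 with 24 hr replicate 1 omitted) or under a common median (0.0503). The other measured folding genes of the endoplasmic reticulum, 7 of 8, did not pass at 24 hr, among them BZIP60 at 0.05 and BZIP28 at -0.15. The share called over all probe sets was 0.958%.

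The 24 hr arrays were then set against each earlier DEX time directly. These 3 comparisons share the 24 hr arrays with each other and with the comparison against 0 hr. Against 12 hr, 5 probe sets stood higher (0.022%) and 21 lower (0.0923%) at 24 hr, together 0.114%. Against 6 hr, 617 were higher (2.71%) and 883 lower (3.88%), together 6.59%. Against 3 hr, 1248 were higher (5.49%) and 1071 lower (4.71%), together 10.2%, a split that turned to 992 higher and 1341 lower when the arrays were scaled to a common median. The count against 12 hr was 2 with 12 hr replicate 2 omitted, 6 with 12 hr replicate 1 omitted, 12 without 24 hr replicate 1 and 65 with 24 hr replicate 2 omitted. Of the counts against 6 and 3 hr, the lowest were 590 without 6 hr replicate 1 and 1255 with 3 hr replicate 1 omitted.

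**Figure D4:**
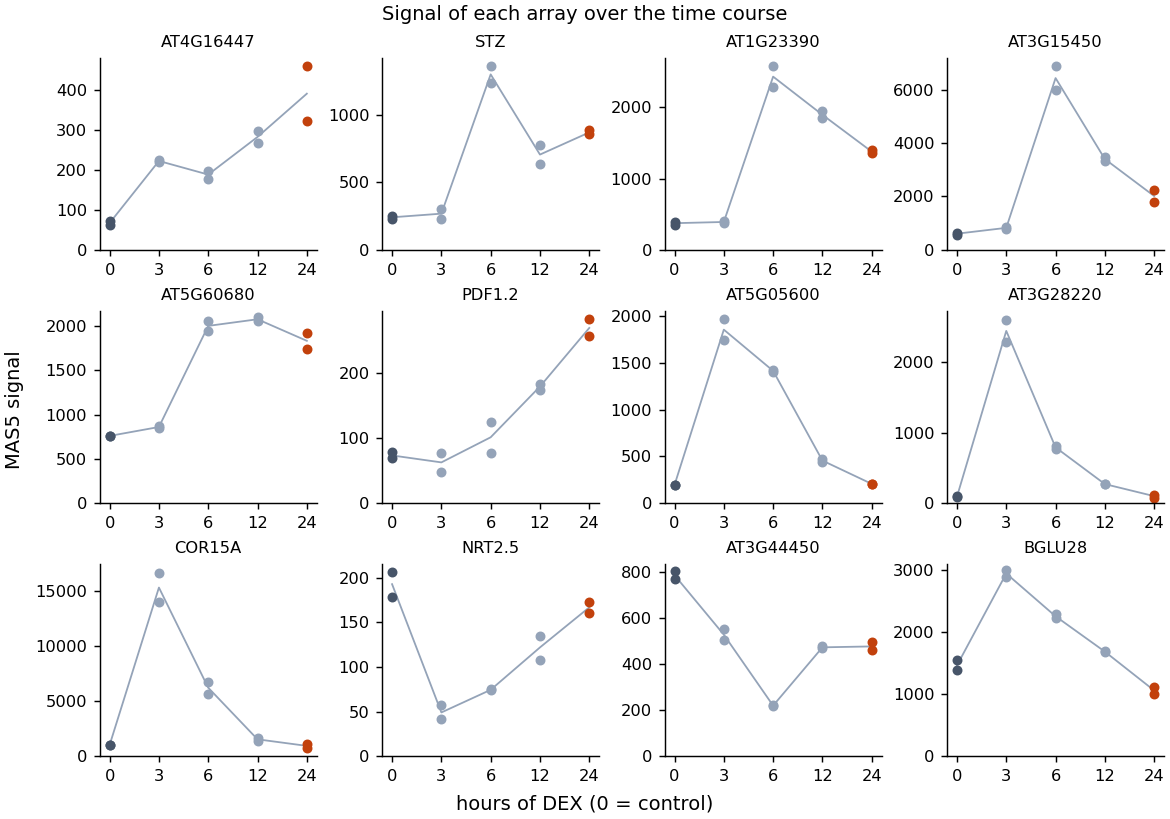
MAS5 signal of each array over 0, 3, 6, 12 and 24 hr of DEX for 12 genes, with the line through the group means, the 0 hr arrays in dark grey and the 24 hr arrays in orange. AT4G16447 and PDF1.2 have their highest mean at 24 hr, although neither passed against 12 hr. AT5G05600, AT3G28220 and COR15A peak at 3 hr and lie beside their 0 hr arrays at 24 hr.

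Most transcripts that were still higher than at 0 hr did not differ detectably from 12 hr. Of the 163, 158 did not pass against 12 hr, 1 with no gene name was higher and 4 were lower at 24 hr. The 4 were AT2G20670 (-0.91), AT3G15450 (-0.76), the DUF506 gene AT3G07350 (-0.61) and the aspartyl protease gene AT5G19120 (-0.45), of which the last 2 were named after their values were seen. AT2G20670, for example, had 778 and 911 at 24 hr, against 1707 and 1500 at 12 hr. AT3G15450 had 1776 and 2255 at 24 hr, against 3334 and 3463 at 12 hr. Both stood between their 0 hr and 12 hr arrays. The adjusted p of AT2G20670 against 12 hr was 0.00374 with all arrays, 0.094 without 12 hr replicate 1 and 0.059 with 12 hr replicate 2 omitted. That of AT3G15450 was 0.0391 with all arrays, 0.235 with 24 hr replicate 1 omitted, 0.345 without 12 hr replicate 1 and 0.528 with 12 hr replicate 2 omitted. Neither AT3G07350 nor AT5G19120 kept the call in any fit that lacked 1 array, with adjusted p up to 0.404 for AT3G07350 (12 hr replicate 1 omitted) and 0.483 for AT5G19120 (12 hr replicate 2 omitted).

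Against 6 hr, 84 of the 163 were lower at 24 hr, 6 were higher and 73 did not pass, with a median of -0.45. Against 3 hr, 114 were higher, 14 lower and 35 did not pass, with a median of 0.61. Over all probe sets, 2.71% were higher and 3.88% lower against 6 hr, and 5.49% and 4.71% against 3 hr. The 163 higher and 55 lower probe sets were picked through the same 24 hr arrays. This pick tilts the counts against 12, 6 and 3 hr in its own direction. STZ was among those lower at 24 hr than at 6 hr, with 854 and 884 at 24 hr, against 1235 and 1362 at 6 hr (log2 fold change -0.57, adjusted p = 0.0281). AT5G60680 was not, with 1924 and 1746 at 24 hr, against 2063 and 1946 at 6 hr (-0.13, adjusted p = 0.353). Of the 55 lower probe sets, 5 were lower at 24 hr than at 12 hr too and 50 did not pass. The share lower against 12 hr over all probe sets was 0.0923%. The 5 included the chitinase gene AT2G43620 (-0.74) and BGLU28 (-0.66), a beta-glucosidase, beside 3 probe sets with no gene name. BGLU28 had 998 and 1114 at 24 hr, against 1670 and 1692 at 12 hr and 2987 and 2889 at 3 hr. Its adjusted p against 12 hr was 0.008 with all arrays, 0.0771 with 24 hr replicate 1 omitted, 0.114 with 12 hr replicate 1 omitted and 0.168 with 12 hr replicate 2 omitted. That of AT2G43620 was 0.00211, and 0.059 with 12 hr replicate 2 omitted.

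Several genes that were high at 3 hr had no detectable difference from 0 hr left at 24 hr. AT5G05600, an oxygenase that hydroxylates jasmonic acid, had signals of 207 and 202 at 24 hr, against 191 and 196 at 0 hr, and 1751 and 1968 at 3 hr. Its difference from 0 hr was 0.08 (SE 0.09, adjusted p = 0.756), and its difference from 12 hr was -1.09 (adjusted p = 0.000906). The TRAF-like gene AT3G28220 had 75.6 and 119 at 24 hr, against 80.2 and 98.8 at 0 hr, and the 2 groups overlapped. It was lower at 24 hr than at 12 hr by 1.36 (adjusted p = 0.0104), a call that was lost with 12 hr replicate 1 omitted (0.16) and 12 hr replicate 2 (0.168). The thionin gene AT1G66100 had 130 and 109 at 24 hr, against 114 and 83.9 at 0 hr, and was lower than at 12 hr by 1.35 (adjusted p = 0.00374, and 0.052 and 0.117 with 12 hr replicate 1 or 2 omitted). JRG21, another jasmonic acid oxygenase, had 92.6 and 66.6 at 24 hr, against 45.1 and 59.1 at 0 hr. Its difference from 0 hr was 0.48 (SE 0.16, adjusted p = 0.194), so a remaining rise of that size could not be told from none. Its difference from 12 hr was -1.03 (adjusted p = 0.0391), and it held in 1 of the 4 fits that lacked 1 array, with adjusted p up to 0.404 with 12 hr replicate 2 omitted. ATC, a relative of the flowering repressor TFL1, had 125 and 115 at 24 hr, against 257 and 232 at 12 hr (-0.93, adjusted p = 0.0397). That call held in none of these 4 fits. At 3 hr ATC had 497 and 426. Both of its 24 hr arrays lay below both 0 hr arrays, at 180 and 154. That difference was -0.42 (adjusted p = 0.209), so a fall of that size could not be told from none.

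Of 8 measured cold and dehydration genes, COR27 alone was called against 0 hr and 4 had an unadjusted p below 0.05. Over all probe sets 0.958% were called and 13.8% had an unadjusted p below 0.05. Values of the 8 ran from -1.09 to 0.53 with a median of -0.11. The member at -1.09 was LEA4-5, a late embryogenesis abundant protein, with 45.4 and 6.95 at 24 hr, against 72 and 56.7 at 0 hr (SE 0.42, adjusted p = 0.27), and its mean at 24 hr was near background. COR15A, a cold-induced protein of the chloroplast, had signals of 1087 and 771 at 24 hr, against 971 and 1054 at 0 hr (log2 fold change -0.14, SE 0.15, adjusted p = 0.74), with the arrays of the groups interleaved. It was 16.4-fold lower at 24 hr than at 3 hr. LTI30, a dehydrin, had 113 and 79.2 at 24 hr, against 116 and 94.1 at 0 hr (log2 fold change -0.12, SE 0.16), and was 12.7-fold lower than at 3 hr. NRT2.5, a high-affinity nitrate transporter, had 173 and 161 at 24 hr, against 179 and 207 at 0 hr, and 41.2 and 56.9 at 3 hr. Its difference from 0 hr was -0.19 (SE 0.19, adjusted p = 0.713), and it was higher at 24 hr than at 3 hr by 1.5 (adjusted p = 0.000519). None of the 3 nitrogen genes was called by limma, with 1 at an unadjusted p below 0.05.

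Higher at 24 hr than at 12 hr were FEY, a gene needed for normal leaf and meristem development, AT1G73120 and, named after its values were seen, AT1G51110 (0.52, adjusted p = 0.0391, in 1 of its 2 probe sets), beside 2 probe sets with no gene name. FEY had 521 and 539 at 24 hr, against 306 and 359 at 12 hr (log2 fold change 0.65, adjusted p = 0.0397). AT1G73120 had 1459 and 1437 at 24 hr, against 982 and 1073 at 12 hr (log2 fold change 0.49, adjusted p = 0.0391). The second and brighter probe set of AT1G51110 was not called (0.08, adjusted p = 0.757). None of the 3 genes was called against 0 hr, and none of their 3 called probe sets kept the call against 12 hr in any fit that lacked 1 array. For FEY the adjusted p then ran from 0.0663 with 24 hr replicate 2 omitted to 0.403 with 12 hr replicate 1 omitted, and for AT1G73120 from 0.0517 to 0.403 without the same arrays. For the called probe set of AT1G51110 it ran from 0.061 with 24 hr replicate 2 omitted to 0.528 with 12 hr replicate 2 omitted.

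Known root targets and partners of SHR were covered by 4 measured genes of 15, and limma called none of them at 24 hr, nor had any an unadjusted p below 0.05. AT5G41920, the GRAS gene SCL23 that acts beside SHR, had signals of 178 and 178 at 24 hr, against 166 and 182 at 0 hr (log2 fold change 0.03, SE 0.14). The zinc-finger gene AT3G45260 had 117 and 131 at 24 hr, against 217 and 139 at 0 hr (log2 fold change -0.44, SE 0.23). SLY2, an F-box protein of gibberellin signalling, had 97.3 and 96.8 at 24 hr, against 70.8 and 65.8 at 0 hr (log2 fold change 0.42, SE 0.23, adjusted p = 0.444). JKD, a zinc-finger partner of SHR in the root, had 9.75 and 22.6 at 24 hr, against 13.9 and 49.9 at 0 hr, with both means near background. No probe set was named for SHR or SCARECROW, which are not analysed here, so the presence of the fusion could not be checked. The gibberellin receptors GID1A, GID1B and GID1C gave 0.12, 0.38 and -0.17 on the log2 scale. None of 5 measured gibberellin genes was called, with 1 at an unadjusted p below 0.05. Over all probe sets the shares were 0.958% called and 13.8% at an unadjusted p below 0.05.

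**Figure D5:**
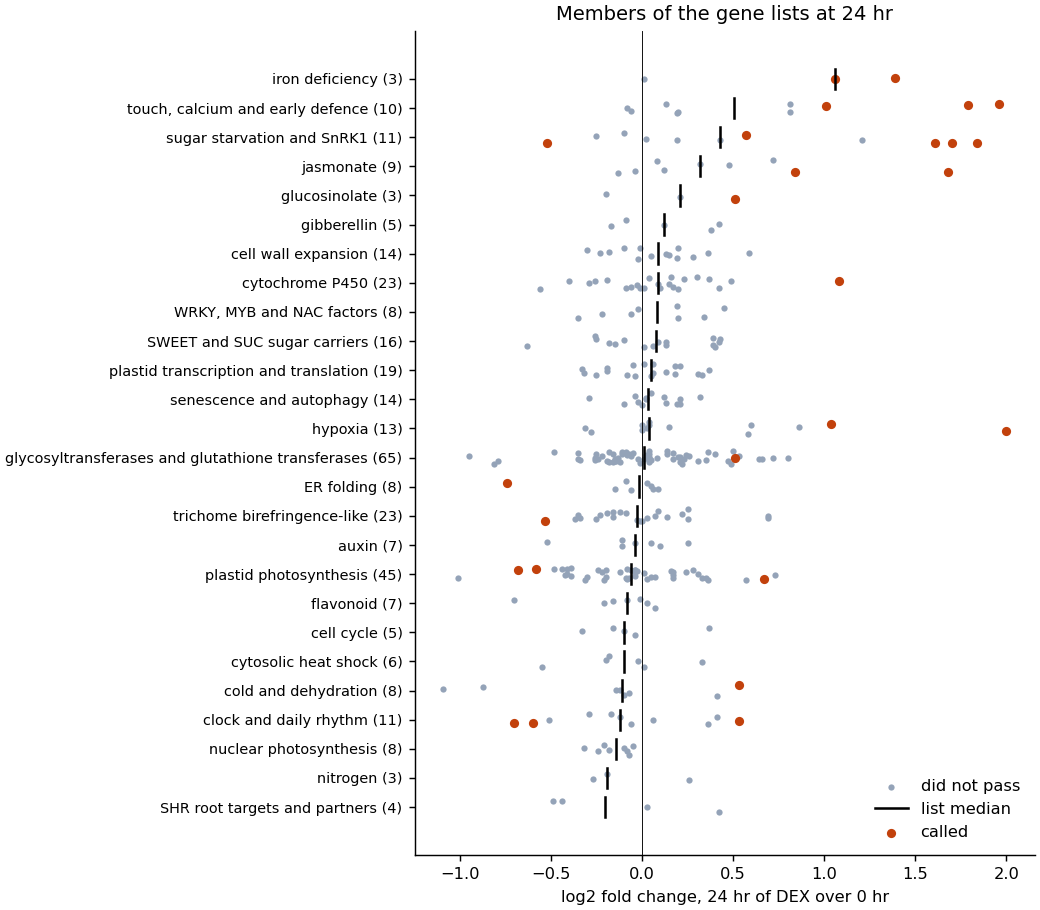
Log2 fold change of 24 hr of DEX over 0 hr for each measured member of the gene lists with 3 or more measured members (number in brackets), with called members in orange and a bar at the list median. Called members lie on both sides of 0 for plastid photosynthesis, sugar starvation and the clock, and list medians run from -0.20 to 1.06.

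Several processes had no called member at 24 hr in the limma fit. For nuclear photosynthesis genes this was 0 of 8 measured, with 2 at an unadjusted p below 0.05 and all 8 between -0.32 and -0.05. For senescence and autophagy it was 0 of 14 (2 unadjusted), for sugar carriers of the SWEET and SUC families 0 of 16 (4 unadjusted) and for WRKY, MYB and NAC factors 0 of 8 (3 unadjusted). For flavonoid synthesis it was 0 of 7 (1 unadjusted), for auxin 0 of 7 (1 unadjusted), for cytosolic heat shock proteins 0 of 6 (0 unadjusted) and for the cell cycle 0 of 5 (0 unadjusted). The largest list, 65 glycosyltransferases and glutathione transferases, had 1 called member. This was UGT74B1, an enzyme of glucosinolate synthesis, with 2159 and 2007 at 24 hr, against 1400 and 1516 at 0 hr (log2 fold change 0.51, SE 0.09, adjusted p = 0.0207). Its adjusted p was 0.16 with control replicate 1 omitted, 0.0839 without control replicate 2 and 0.129 with 24 hr replicate 1 omitted. With a background of 0.958% of all probe sets called, 0 calls in a list of this size range is close to the rate over the whole array. The share of all probe sets at an unadjusted p below 0.05 was 13.8%.

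No gene was named for 85 of the higher and 27 of the lower probe sets, and some of the largest changes were among them. Probe set 247543_at had signals of 646 and 734 at 24 hr, against 138 and 131 at 0 hr (log2 fold change 2.23, SE 0.11, adjusted p = 6.63e-06). Probe set 251428_at fell, with 128 and 125 at 24 hr, against 467 and 381 at 0 hr (log2 fold change -1.62, SE 0.11, adjusted p = 2.77e-05). It was the lowest at 24 hr of all 5 times, since its means at 3, 6 and 12 hr were 517, 591 and 625. Its difference from 12 hr was -2.17 (adjusted p = 1.40e-05), and it was called in each fit that lacked 1 array, at most at 0.00126. AT5G05600 was the other probe set of the 26 called against 12 hr that kept its call in each of these 4 fits.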

How the data were processed

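The authors deposited linear MAS5 signal intensities. The submitters' processing notes name Affymetrix Expression Console 1.1. The mean without the top and bottom 2% was 500 on each array. Total RNA of 300 ng per sample was labelled, per the labels' protocols. Of 22810 probe sets, 64 controls were set aside. Of the rest, 13513 had 1 gene in the probe table, 503 several and 8730 none, with symbols from TAIR10.1. Of 568 list loci, 136 had a named probe set.

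From the deposited intensities, log2(signal + 16) was fitted with limma 3.58.1 in R 4.3.3, one mean per group over all 10 arrays, with an intensity trend, 5 residual and 5.86 prior degrees of freedom. Tests were two-sided, with Benjamini-Hochberg adjustment over 22746 probe sets and a threshold of 0.05. Folds are on the log2(signal + 16) scale and understate changes of dim probe sets. The procedure was tested on simulated data. The number of arrays limits the precision, and p-values measure the spread between arrays, which are biological replicates per the series' design.

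Genes were named by rule: the 25 largest rises and 20 largest falls above the 30th percentile of mean signal, up to 8 each way against 12 hr, genes called at 24 hr and no earlier time, SHR targets, and up to 4 called or 2 uncalled members of 30 lists. Others, and further list members given as examples, were named after their values were seen. The members and lists were chosen with earlier results of these data known. The alternatives were other offsets, normalizations, filters and variance models, a replicate block, a fit over the arrays compared, and leaving out each array.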

Additional observations from a re-analysis of the deposited data

How the results depend on the processing

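Against 0 hr the 218 calls became 391 without the lowest 30% of probe sets, 58 without the intensity trend and 49 over only the 4 arrays compared, and 70 to 192 with 1 array left out. Against 12 hr the 26 calls became 50 without the lowest 30%, 1 without the trend, 14 with the replicate block, 1 over only the 4 arrays compared, and 2 to 65 with 1 array left out. Against 6 hr the 1500 calls became 598 without the trend, 525 over only the 4 arrays compared and 590 to 1424 with 1 array left out. Against 3 hr the 2319 calls became 1144 without the trend, 818 over only the 4 arrays compared and 1255 to 1867 with 1 array left out. The 4-array fits and those without 1 array have fewer residual degrees of freedom, and the filter leaves fewer probe sets to adjust over. Leaving out 1 array also leaves its group with a single array, which widens the standard error. The cause of the other differences was not tested. The other offsets, quantile normalization and common-median scaling moved none of these 4 totals by over 1.5 times.

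The replicate numbers did not pair the arrays: replicate deviations of 2 groups correlated between -0.1007 and 0.136. With the replicate block 157 probe sets were called against 0 hr, 148 of them among the 218, and 12 of the 53 called named genes lost their call. Of these 53, 34 lost it without the trend and 34 over the 4 arrays. The direction turned for 4 of 88 named genes, none of them called: AT3G28220 ran from -0.20 (without 24 hr replicate 2) through -0.04 (without control replicate 1) to 0.37, JKD from -1.07 to 0.08 (without control replicate 2), AT1G53540 from -0.05 (without control replicate 1) to 0.71, and AT5G41920 from -0.03 (without control replicate 1) to 0.09.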
